A study of Homo sapiens with 6 samples.

Results

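A set of 30 genes of antigen presentation and of the immunoproteasome were followed in cells of the human leukemic T-cell line Jurkat that overexpressed a splicing isoform of PDCD1. They were chosen by gene symbol from the 59248 symbols of the deposited table, and 30 of 30 were present. The isoform, PDCD1-28 (the labels set the 28 as a superscript), keeps 28 bases from the start of intron 2 of PDCD1, the gene of the inhibitory receptor PD-1. Bulk RNA sequencing covered 3 libraries of PDCD1-28 overexpression and 3 of vector. All 6 came from cells that the growth protocol names Jurkat KO-1, without saying what the addition stands for, and the labels used here give neither the promoter of the construct nor whether a line was 1 clone. Whether the numbered libraries are separate cultures is not in the labels; each p-value therefore reflects library-to-library spread alone, and this can be technical.

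Class I molecules show peptides from inside the cell to CD8 T cells. Proteasomes cut proteins into peptides, the transporter TAP carries these into the endoplasmic reticulum, aminopeptidases trim them, and the loading complex fits them to a heavy chain paired with beta-2 microglobulin. Interferon-gamma exchanges the constitutive catalytic subunits of the proteasome for inducible ones, which gives the immunoproteasome. Class II molecules show peptides from endosomes to CD4 T cells and are made mainly by professional antigen-presenting cells, although activated human T cells make them too. The RFX complex binds the promoters of both classes, where NLRC5 acts as coactivator for class I and CIITA for class II.

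Libraries held between 59911578 and 84220970 estimated counts. PDCD1 had 945, 1059 and 807 estimated counts in overexpression, against 14, 18 and 15 in vector. Vector replicate 2 stood apart when replicates were compared in pairs, on values divided by 4 and genes averaging 100 or more estimated counts. The chi-square per degree of freedom over these genes was 16.2 and 18.2 for vector replicate 2 against vector replicates 1 and 3. It was between 2.76 and 3.22 for the other pairs. The size of this statistic depends on the division by 4, and the unit of the values is not settled. The level in vector replicate 2 was the lowest of the 3 vector libraries in 12 of the 16 class I members tested, so results that turn on this library are given with and without it. The same share over all genes tested was not computed, so this count cannot be read as particular to class I. Levels below are CPM, estimated counts scaled to a common library size after TMM adjustment, and changes are log2 fold changes of overexpression over vector with their SE, from edgeR's quasi-likelihood test on all 21055 genes that passed its filter on low counts. A gene was called at a Benjamini-Hochberg adjusted p under 0.05. In bulk RNA, fewer expressing cells and less RNA per cell cannot be told apart.

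Of the 30 genes, 14 rose, 2 fell, 10 were tested and not called, and 4 were too low to test. Over all genes tested, 46.1% were called, 22.6% as higher and 23.4% as lower in overexpression. Among class I members the immunoproteasome subunit gene PSMB9, the transporter gene TAP2 and the subunit gene PSMB8 had the largest rises, and among the regulators RFXANK and RFX5 rose. The largest fitted rise of all members was that of the scarce class II gene HLA-DRB1, and B2M and ERAP2 fell. By role, the 16 tested class I members (5 heavy chain genes with B2M, 11 genes of peptide supply) had 9 rises, 2 falls and a median log2 change of 0.41. The 5 tested class II members had 3 rises, no fall and a median of 0.86. Of these, HLA-DRB1, HLA-DPA1 and HLA-DMB passed the filter only through their overexpression libraries, which favours higher values there. Both the count and the median of class II are thus partly set by the filter and cannot be weighed against the other roles. The 5 regulators had 2 rises, no fall and a median of 0.22. The median over all genes tested was 0.02. The groups did not overlap in 20 of the 26 members tested, a separation that 58.7% of all genes tested showed.

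**Figure D1:**
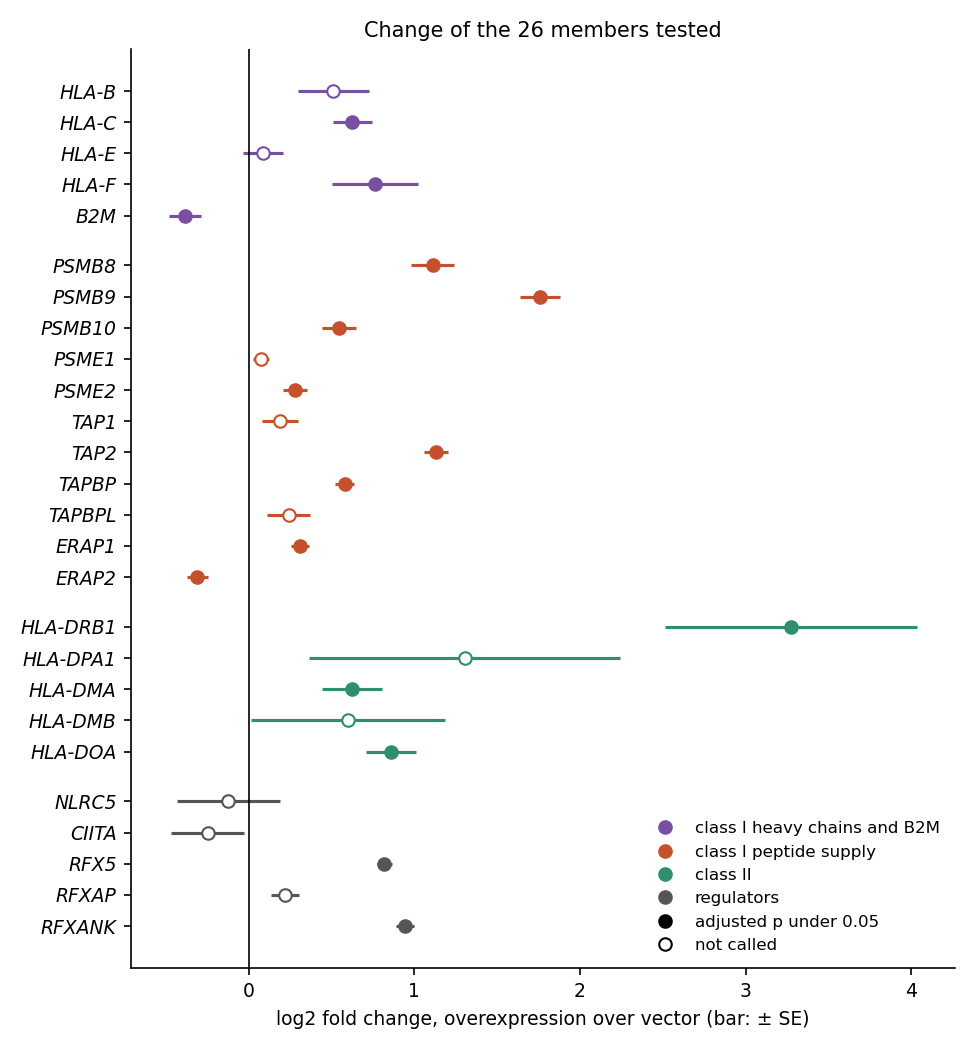
Log2 fold change of overexpression over vector (x axis, bars ± SE, n = 3 libraries each) for the 26 members tested, grouped by role, with filled points for adjusted p under 0.05. PSMB9 at 1.76, TAP2 at 1.13 and PSMB8 at 1.11 lie farthest right among class I members, B2M at -0.38 and ERAP2 at -0.31 lie left of 0, and the class II genes HLA-DRB1 and HLA-DPA1 have the widest bars.

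The 3 inducible catalytic subunit genes of the immunoproteasome all rose. PSMB9, which encodes subunit beta1i, had 21.1, 21.5 and 19.0 CPM in overexpression, against 6.37, 5.39 and 6.49 CPM in vector. It was 3.38-fold higher (log2 1.76 ± 0.12, SE; edgeR adjusted p = 1.87e-05), and the lowest overexpression library lay far above the highest vector library. PSMB8, which encodes beta5i, had 75.2, 74.1 and 75.5 CPM in overexpression, against 38.7, 26.8 and 38.6 CPM in vector. The overexpression libraries were nearly alike and vector replicate 2 was the low one; the change was 2.16-fold (log2 1.11 ± 0.13, edgeR adjusted p = 0.000272), and log2 0.94 without that library. PSMB10, which encodes beta2i, had 21.5, 23.6 and 23.1 CPM in overexpression, against 15.1, 17.5 and 14.0 CPM in vector. Its rise was the smallest of the 3 in these libraries, at 1.46-fold (log2 0.55 ± 0.10, edgeR adjusted p = 0.00326), with no overlap between the groups. PSMB8 and PSMB9 have annotated exons that overlap each other on opposite strands, and PSMB8-AS1 shares exonic positions with PSMB9 on its own strand and with PSMB8 and TAP1 on the other. PSMB8-AS1 was itself higher, at 240 to 337 estimated counts in overexpression and 122 to 183 in vector, and without a known strand setting reads in the shared positions cannot be told apart.

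The constitutive subunits that these replace in the same catalytic sites moved the other way. PSMB7, the beta2 partner of PSMB10, averaged 95.8 ± 0.463 CPM in overexpression and 175 ± 4.14 CPM in vector (SD, n = 3 each; log2 -0.87 ± 0.04, SE; edgeR adjusted p = 4.76e-06). PSMB5, the beta5 partner of PSMB8, averaged 59.9 ± 1.63 CPM in overexpression and 84.9 ± 7.72 CPM in vector, and PSMB6, the beta1 partner of PSMB9, 70.9 ± 2.73 CPM in overexpression and 89.7 ± 1.96 CPM in vector, both called lower (edgeR adjusted p = 0.000734 and 0.000856). Each inducible subunit was therefore set against its partner as a share of the pair, with counts divided by the length of the principal transcript. PSMB8 made up 58.9%, 59.5% and 58.7% of its pair in overexpression, against 33.4%, 28.9% and 33.1% in vector. PSMB9 made up 24.9%, 25.3% and 21.9% of its pair in overexpression, against 7.16%, 6.28% and 7.18% in vector. PSMB10 made up 15.3%, 16.6% and 16.2% in overexpression, against 6.33%, 7.60% and 6.07% in vector. In all 3 pairs every overexpression library exceeded every vector library, by 27.2, 17.15 and 9.34 percentage points between the means for PSMB8, PSMB9 and PSMB10. The exact two-sided permutation test gave p = 0.1 for each pair, also when adjusted over the 3 pairs, which is the smallest p that 3 libraries against 3 allow (n = 3 each). The shares depend on the lengths used. With merged exons in place of the principal transcript, PSMB8 averaged 42.4% in overexpression and 19.3% in vector, PSMB9 12.04% in overexpression and 3.10% in vector, and PSMB10 18.6% in overexpression and 7.88% in vector. The differences were then 23.1, 8.95 and 10.7 points for PSMB8, PSMB9 and PSMB10, so that PSMB9 came after PSMB10.

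**Figure D2:**
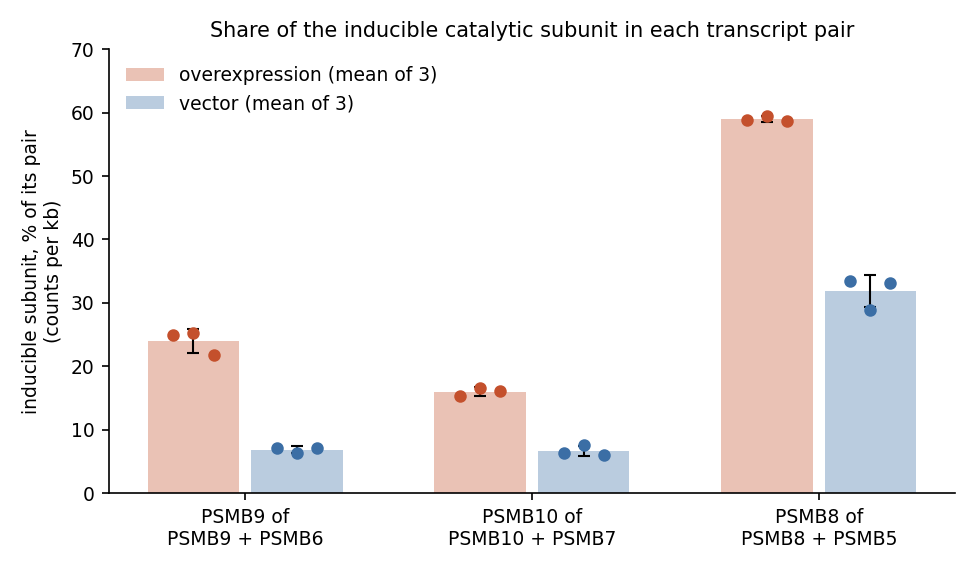
Inducible catalytic subunit as a percentage of the sum with its constitutive partner, from counts per kb of principal transcript (y axis), for the 3 catalytic pairs. Bars are means of 3 libraries, error bars SD and points single libraries; overexpression lies above vector in each pair, with PSMB8 at 59.0% in overexpression and 31.8% in vector.

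Of the 2 genes of the interferon-inducible proteasome activator PA28, PSME2 rose slightly and PSME1 was not called. PSME2, which encodes PA28 beta, had 78.4, 86.0 and 76.1 CPM in overexpression, against 68.0, 60.6 and 69.5 CPM in vector, and rose 1.22-fold (log2 0.28 ± 0.07, edgeR adjusted p = 0.0125). The call was lost without overexpression replicate 2, the highest library (log2 0.23, edgeR adjusted p = 0.0530). PSME1, which encodes PA28 alpha, averaged 111 ± 3.79 CPM in overexpression and 105.5 ± 2.34 CPM in vector and was not called (95% interval of the log2 change from -0.03 to 0.18). Both genes share exonic positions with a neighbour on the other strand, PSME1 with EMC9, which was higher (log2 0.57, edgeR adjusted p = 0.00112), and PSME2 with RNF31, which was not called.

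Among the transporter and loading genes, TAP2 and the tapasin gene TAPBP rose while TAP1 was not called. TAP2, which encodes one subunit of the peptide transporter, had 90.7, 93.2 and 92.1 CPM in overexpression, against 42.8, 37.6 and 45.6 CPM in vector. It was 2.19-fold higher (log2 1.13 ± 0.07, edgeR adjusted p = 1.54e-05), with no overlap. TAP1, the other subunit, had 48.6, 52.3 and 54.7 CPM in overexpression, against 50.1, 37.7 and 48.9 CPM in vector. The groups overlapped, the low vector library being replicate 2, and the 95% interval of the log2 change ran from -0.06 to 0.44. The 2 subunits form the transporter as a pair, and per kb of principal transcript TAP2 stood at 36.8 ± 0.506 and TAP1 at 17.5 ± 1.04 CPM per kb in overexpression, against 16.8 ± 1.63 for TAP2 and 15.4 ± 2.31 for TAP1 in vector (SD, n = 3). By merged exons, 6.39 kb for TAP2 and 4.805 kb for TAP1, TAP2 would stand above TAP1 in overexpression but below it in vector. TAPBP, which encodes the chaperone that bridges TAP and the heavy chain, had 88.0, 85.9 and 82.2 CPM in overexpression, against 57.2, 54.0 and 60.2 CPM in vector. It rose 1.49-fold (log2 0.58 ± 0.06, edgeR adjusted p = 0.000116), with all 3 overexpression libraries above the vector libraries. TAPBPL, which encodes the related peptide editor TAPBPR, averaged 15.3 ± 0.864 CPM in overexpression and 12.95 ± 1.84 CPM in vector and was not called (95% interval of the log2 change from -0.05 to 0.54).

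The 2 aminopeptidase genes of the endoplasmic reticulum, which lie near each other on chromosome 5 on opposite strands, changed in opposite directions. ERAP1 had 84.3, 83.6 and 81.8 CPM in overexpression, against 62.8, 68.6 and 70.3 CPM in vector, a rise of 1.24-fold (log2 0.31 ± 0.06, edgeR adjusted p = 0.00245). ERAP2 had 59.3, 61.0 and 56.2 CPM in overexpression, against 74.9, 67.8 and 76.1 CPM in vector, a change of log2 -0.31 ± 0.06 (edgeR adjusted p = 0.00411). Neither gene overlapped between the groups. The exons of ERAP1 overlap those of CAST on the other strand, and CAST was higher too (log2 0.56, edgeR adjusted p = 0.0137). Its part in the ERAP1 value was not tested.

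**Figure D3:**
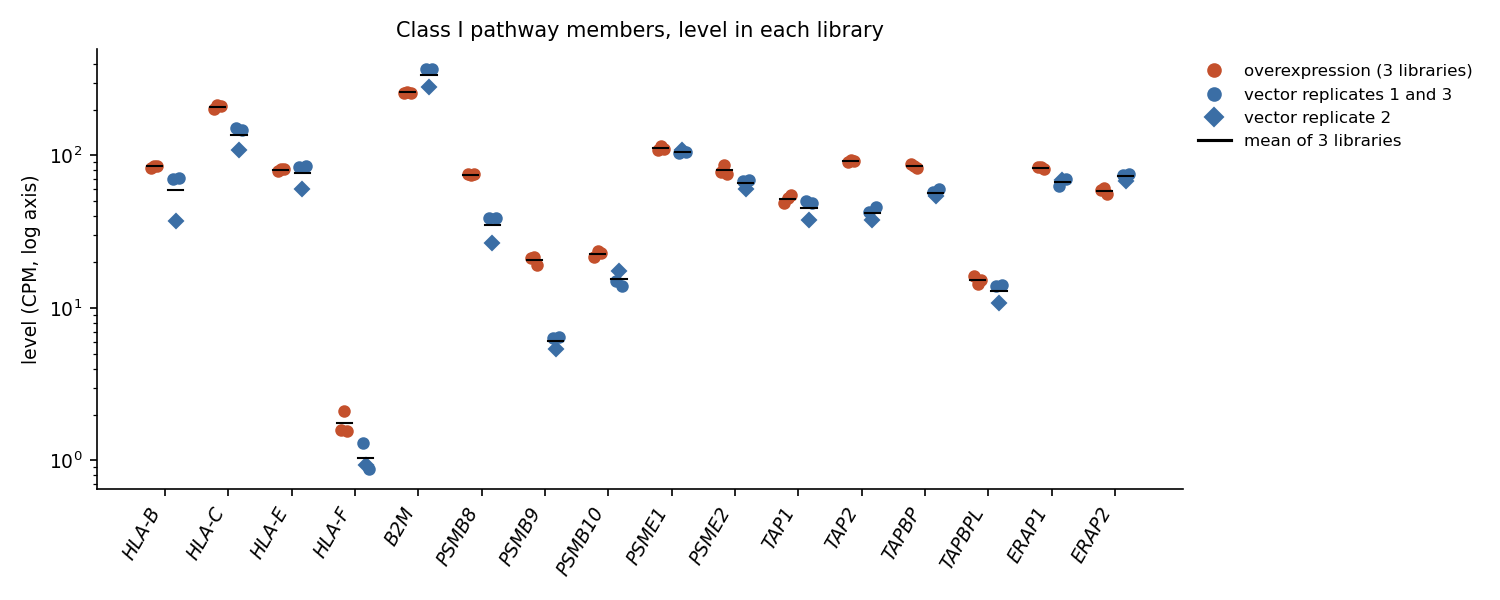
Level in CPM (log axis) of the 16 class I members tested in each of 3 overexpression and 3 vector libraries, with vector replicate 2 as a diamond and bars at the means. Overexpression lies above vector without overlap for PSMB8, PSMB9 and TAP2, below it for B2M and ERAP2, and vector replicate 2 is the lowest of the vector libraries in HLA-B, HLA-C, HLA-E and B2M.

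To show what lies before the starts of these genes, windows of 250 bases before to 50 bases after each annotated start were searched on both strands for a pair of GAAA with 2 bases of any kind between them, the core of the interferon-stimulated response element. RefSeq windows (GRCh38.p14) were at hand for 26 of the 30 members, with 1 to 3 per gene. The letters occurred in a window of 12 of these 26 members, against 4.38% of the 27305 genes with a window. By role they stood in 9 of 11 genes of peptide supply, 2 of 5 heavy chain genes with B2M, 0 of 7 class II genes and 1 of 3 regulators. Among called members, 8 of 14 that rose and 2 of 2 that fell held them, as did 2 of 7 that were not called. A pair of other motifs was searched: TTCNNNGAA (N any base), the gamma-activated site, occurred in 2 of the 26 members and in 9.38% of all genes, and CCAAT, part of the promoter module of both classes, in 15 of the 26 members and in 39.7% of all genes. None of the 15 matches of the GAAA pair in member windows overlapped a match of the other motifs. A match describes letters only. The stretches below show the matches in capitals with 40 bases on each side, 5′ to 3′ on the gene's strand, for 4 genes that rose, for TAP1, which was not called, and for B2M, which fell; the window of PSMB9, whose change was the largest among class I members, is shown whole because it held no match.
PSMB8 (chr6:32844002-32844091, minus strand): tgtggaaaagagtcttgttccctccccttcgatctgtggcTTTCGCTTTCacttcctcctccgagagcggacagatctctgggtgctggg
PSMB10 (chr16:67936822-67936911, minus strand): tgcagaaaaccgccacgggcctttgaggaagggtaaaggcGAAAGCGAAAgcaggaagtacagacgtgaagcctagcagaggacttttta
TAP2 (chr6:32838748-32838837, minus strand): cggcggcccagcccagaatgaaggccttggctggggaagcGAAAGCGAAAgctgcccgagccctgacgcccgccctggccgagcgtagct
TAPBP (chr6:33314043-33314138, minus strand): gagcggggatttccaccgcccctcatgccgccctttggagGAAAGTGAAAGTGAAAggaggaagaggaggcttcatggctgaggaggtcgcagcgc
TAP1 (chr6:32853783-32853878, minus strand): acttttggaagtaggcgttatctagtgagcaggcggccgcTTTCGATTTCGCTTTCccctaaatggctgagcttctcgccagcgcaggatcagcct
B2M (chr15:44711333-44711428, plus strand): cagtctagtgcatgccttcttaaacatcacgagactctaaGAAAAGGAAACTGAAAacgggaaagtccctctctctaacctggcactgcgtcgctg
PSMB9 (chr6:32853942-32854241, plus strand): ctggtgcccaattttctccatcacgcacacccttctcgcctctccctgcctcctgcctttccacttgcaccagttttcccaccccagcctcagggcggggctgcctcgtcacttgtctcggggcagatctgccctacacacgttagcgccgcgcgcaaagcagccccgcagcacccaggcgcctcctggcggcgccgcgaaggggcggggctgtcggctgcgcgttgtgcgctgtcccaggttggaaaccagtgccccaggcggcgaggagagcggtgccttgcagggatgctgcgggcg
The first match began at position -58 in TAP2, -20 in TAPBP, -21 in PSMB10, -4 in PSMB8, -134 in TAP1 and -144 in B2M. Positions are counted with the RefSeq start of the window shown as 0, which need not be the outermost annotated start of the gene. TAP1 and PSMB9 run in opposite directions from RefSeq starts 488 bases apart, so the match shown for TAP1 lies in the stretch between those starts.

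The class I heavy chain genes and the gene of their light chain did not move together. HLA-C, a classical heavy chain gene, had 202, 214 and 212 CPM in overexpression, against 152, 108 and 147 CPM in vector. It rose 1.54-fold (log2 0.63 ± 0.12, edgeR adjusted p = 0.00284), or log2 0.48 without vector replicate 2, and the groups did not overlap. HLA-B, also classical, had 83.3, 85.8 and 84.9 CPM in overexpression, against 69.9, 37.1 and 71.3 CPM in vector. The low vector library was replicate 2, and the gene was not called (log2 0.51 ± 0.21, edgeR adjusted p = 0.0829). Without that library the change was smaller and called (log2 0.25, edgeR adjusted p = 0.000586). HLA-E, a non-classical chain recognised by the receptor NKG2A on natural killer cells, had 78.9, 81.9 and 81.5 CPM in overexpression, against 83.8, 60.02 and 84.7 CPM in vector, and was not called (95% interval of the log2 change from -0.19 to 0.36); its direction turned without vector replicate 2 (log2 -0.07).

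B2M, which encodes the light chain shared by all class I molecules, had 257, 262 and 259 CPM in overexpression, against 367, 280 and 367 CPM in vector. It fell by 0.38 ± 0.10 on the log2 scale (edgeR adjusted p = 0.0130), and each overexpression library lay below each vector library. Without vector replicate 2, the lowest of its group, the fall was log2 -0.51. HLA-F, a non-classical chain, had 103, 157 and 99 estimated counts in overexpression, against 75, 75 and 59 in vector, and was called higher (log2 0.76 ± 0.26, edgeR adjusted p = 0.0411). That call was lost in 8 of 13 alternative settings. The antisense gene HLA-F-AS1, which overlaps its exons, had 107 to 138 estimated counts in overexpression and 7 to 15 in vector (log2 3.25, edgeR adjusted p = 0.000302), and its part in the HLA-F value was not tested. HLA-G, a chain best known from the placenta, had 0, 0 and 3 estimated counts in overexpression, against 5, 0 and 0 in vector, and was not tested. Heavy chain genes are near-identical over long stretches, so counts can be split between them and with the related genes of the locus, and the values of HLA-B and HLA-C are uncertain to that extent.

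Levels per kb of principal transcript showed B2M as the most abundant of the members in both groups, at 152 ± 1.61 CPM per kb in overexpression and 198 ± 29.5 in vector (SD, n = 3). HLA-C followed in overexpression at 136 ± 4.35 CPM per kb, with 88.3 ± 15.6 in vector, and PSME1 at 110.5 ± 3.77 in overexpression and 105 ± 2.33 in vector. HLA-B stood at 54.7 ± 0.830 in overexpression and 38.4 ± 12.5 in vector, and HLA-E at 31.1 ± 0.632 in overexpression and 29.3 ± 5.39 in vector. In vector the mean of PSME1 was above that of HLA-C. HLA-F, at 1.07 ± 0.192 in overexpression and 0.631 ± 0.140 in vector, and the class II genes lay far below these. The order of the first genes depends on the length used. Merged exons measure 6.08 kb for B2M, 2.51 kb for HLA-C and 1.78 kb for PSME1, against 1.705, 1.54 and 1.01 kb for the principal transcripts. By merged exons B2M would not come first in either group.

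Class II transcripts were scarce in all 6 libraries. HLA-DRA, the invariant alpha chain gene of HLA-DR, had no counts in any library. A count of 0 allows up to 12 estimated counts per library (3 read pairs, taking each as about 4 estimated counts, a unit that the files do not settle), or 0.149 to 0.207 CPM, for counting error only. CD74, which encodes the invariant chain, had 0, 5 and 0 estimated counts in overexpression, against 0, 17 and 7 in vector, and HLA-DPB1, a beta chain gene, had 4, 42 and 8 in overexpression, against 0, 1 and 4 in vector; neither passed the filter. HLA-DPA1, the alpha chain gene, had 47, 17 and 19 estimated counts in overexpression, against 0, 25 and 12 in vector, and HLA-DMB, one chain of the peptide exchange factor HLA-DM, had 40, 32 and 17 in overexpression, against 8, 42 and 13 in vector. In both of these genes the groups overlapped and neither was called. Both passed the filter only through their overexpression libraries.

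HLA-DRB1, HLA-DMA and HLA-DOA were the class II members called, all higher in overexpression. HLA-DRB1, the beta chain gene of HLA-DR, had 94, 80 and 53 estimated counts in overexpression, against 0, 9 and 15 in vector (log2 3.28 ± 0.76, edgeR adjusted p = 0.00844). It passed the filter through its overexpression libraries, the vector values lie near or under the floor of 12, and the change was log2 4.14 without vector replicate 3 and 2.74 without vector replicate 1, so its size is uncertain. HLA-DMA, the other chain of HLA-DM, had 3.17, 4.03 and 3.57 CPM in overexpression, against 2.47, 2.38 and 2.14 CPM in vector. It rose 1.54-fold (log2 0.62 ± 0.18, edgeR adjusted p = 0.0211), without overlap. Its call was lost without overexpression replicate 2 or 3 or vector replicate 3, with no filter and with the replicate block (edgeR adjusted p between 0.0515 and 0.0821), and its exons overlap those of BRD2 on the other strand, which held 27989 to 32952 estimated counts in overexpression and 30147 to 41543 in vector. HLA-DOA, a chain of HLA-DO, which restrains HLA-DM, had 6.59, 6.45 and 6.40 CPM in overexpression, against 3.24, 4.003 and 3.46 CPM in vector. It rose 1.81-fold (log2 0.86 ± 0.15, edgeR adjusted p = 0.00215), and the overexpression libraries lay close together above the vector libraries. Per kb, HLA-DMA stood at 3.20 ± 0.382 CPM per kb in overexpression and 2.07 ± 0.149 in vector, and HLA-DOA at 1.86 ± 0.0288 in overexpression and 1.02 ± 0.112 in vector (SD, n = 3).

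Of the 5 regulators, the RFX genes RFX5 and RFXANK rose, and the coactivator genes NLRC5 and CIITA were not called. RFX5, the DNA-binding subunit, had 172, 179 and 173 CPM in overexpression, against 96.9, 101 and 99.4 CPM in vector. It was 1.76-fold higher (log2 0.82 ± 0.04, edgeR adjusted p = 6.08e-06), and the groups lay far apart. RFXANK, the ankyrin-repeat subunit, had 61.2, 65.3 and 63.7 CPM in overexpression, against 33.1, 32.1 and 33.8 CPM in vector. It was 1.92-fold higher (log2 0.94 ± 0.05, edgeR adjusted p = 9.03e-06), again without overlap; its exons overlap those of BORCS8 and NR2C2AP on the other strand. RFXAP, the remaining subunit, had 41.6, 35.7 and 36.6 CPM in overexpression, against 30.5, 35.1 and 32.2 CPM in vector. The groups met without overlapping and the gene was not called (log2 0.22 ± 0.08, edgeR adjusted p = 0.0646); it was called without vector replicate 2 (log2 0.26, edgeR adjusted p = 0.0200).

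NLRC5, the class I coactivator, had 23.3, 23.4 and 27.3 CPM in overexpression, against 35.4, 13.1 and 32.1 CPM in vector. Vector replicate 2 lay below all overexpression libraries and the other 2 vector libraries above them, and the gene was not called (log2 -0.12 ± 0.31, edgeR adjusted p = 0.774). Without vector replicate 2 NLRC5 was called lower (log2 -0.46, edgeR adjusted p = 0.00254), whereas without vector replicate 1 or 3 its sign turned (log2 0.12 and 0.02). Of the 3 vector libraries, replicate 2 was also the lowest in 12 of the 16 class I members tested, a count without its share over all genes. HLA-B, HLA-C, HLA-E and B2M were among them. It was the middle one in 2, HLA-F and ERAP1, and the highest in 2, PSMB10 and PSME1. Among the other regulators it was the lowest for RFXANK as well. A relation of these levels to that of NLRC5 was not tested. CIITA, the class II coactivator, had 10.04, 11.8 and 11.2 CPM in overexpression, against 9.42, 17.8 and 11.99 CPM in vector. Here vector replicate 2 was the highest of its group, and the gene was not called with it (log2 -0.25 ± 0.22, edgeR adjusted p = 0.389) or without it (log2 0.03, edgeR adjusted p = 0.875). The exons of CIITA overlap those of DEXI on the other strand, which was lower in overexpression (log2 -0.57, edgeR adjusted p = 0.00153).

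**Figure D4:**
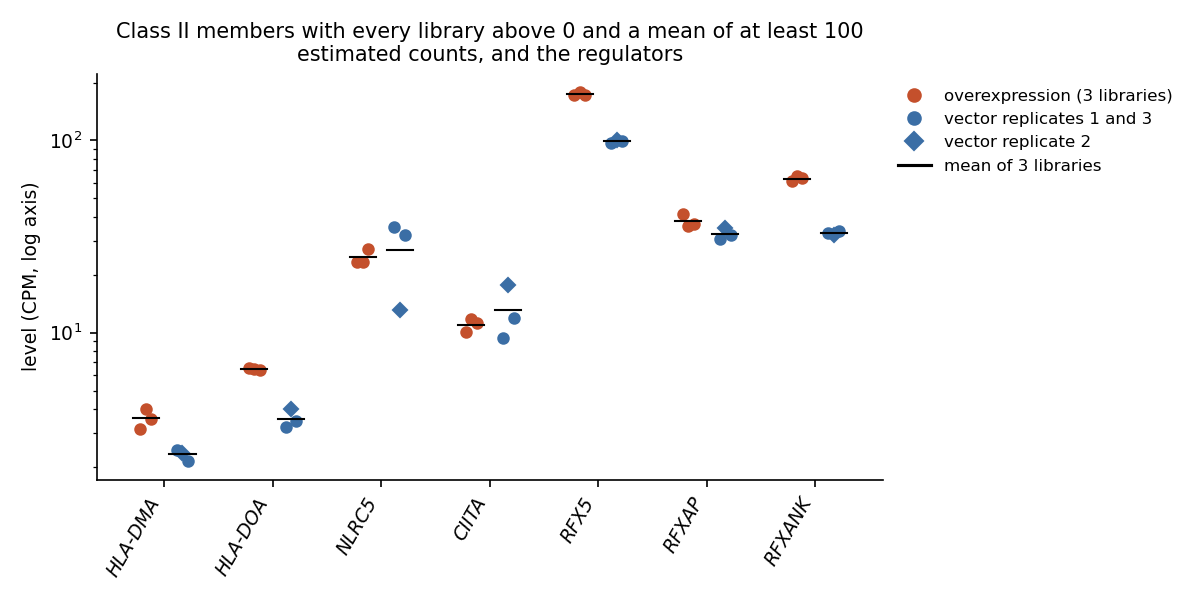
Level in CPM (log axis) of HLA-DMA and HLA-DOA, the class II members averaging 100 or more estimated counts, and of the 5 regulators in each library, with vector replicate 2 as a diamond and bars at the means. RFX5, RFXANK and HLA-DOA lie higher in overexpression without overlap, while vector replicate 2 is lowest for NLRC5 (13.1 CPM) and highest for CIITA (17.8 CPM).

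Much of the pathway lies in the major histocompatibility complex on chromosome 6, so members were set beside their neighbours there. TAP2 (chromosome 6, 32821833 to 32838780, minus strand), PSMB8 (32840717 to 32844703, minus strand), TAP1 (32845209 to 32853978, minus strand) and PSMB9 (32844136 to 32859585, plus strand) lie together, and by these outer bounds the span of PSMB9 holds TAP1 and overlaps PSMB8 (GENCODE 29, GRCh38, the assembly hg38 names). The RefSeq starts used for the windows above are other ones, and for PSMB9, TAP1, PSMB8 and TAP2 they lie inside the spans given here. By these outer bounds the matches shown for TAP1 and PSMB8 lie within their own genes. From the start of HLA-F to the end of TAPBP (29722775 to 33314387), 41 of the 88 other protein-coding genes that averaged 100 or more estimated counts were called higher (46.6%) and 19 lower, with a median log2 change of 0.19. Of the 477 on the rest of chromosome 6, 28.5% were called higher, and of all 11526 such genes 25.9%. At the same minimum, members in the span were called higher in 7 of 10 cases with a median of 0.625, and members outside it in 5 of 12 with a median of 0.23. The 88 other genes include genes of the pathway lists below, among them MICA and HLA-DQB1, both called higher. They are thus not a background of unrelated genes. The part of position in these changes was not tested.

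**Figure D5:**
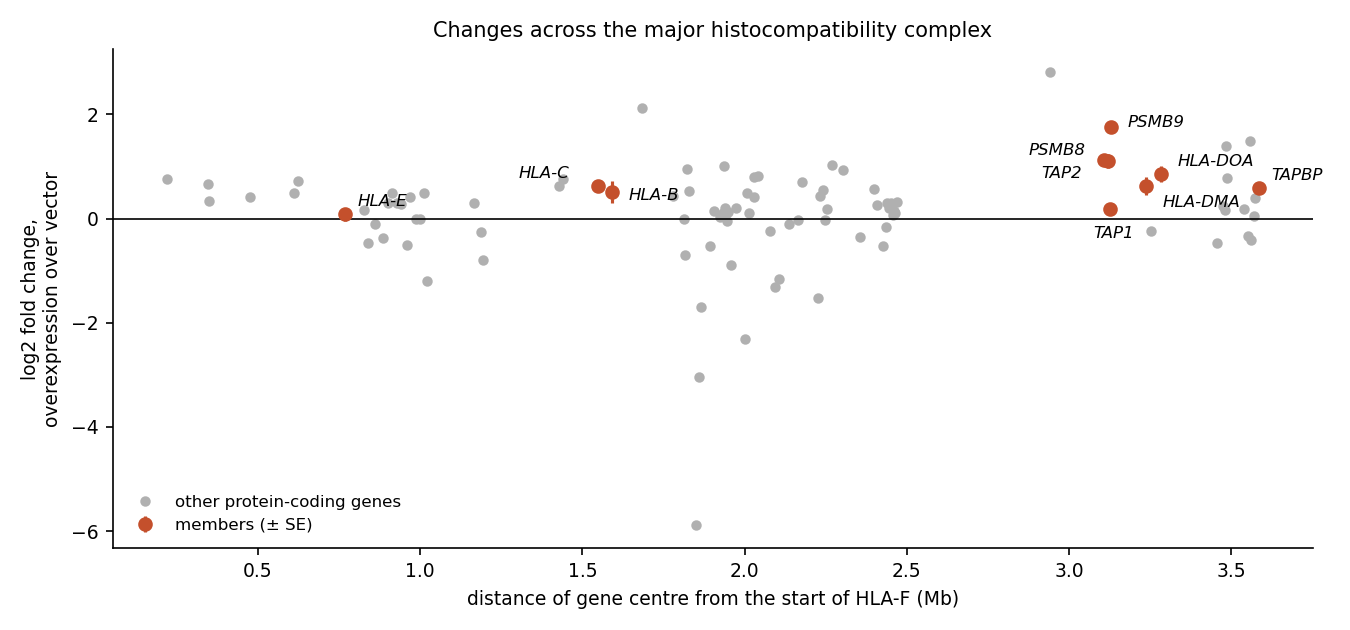
Log2 fold change of overexpression over vector (y axis) against the distance of each gene's centre from the start of HLA-F in Mb (x axis), for 10 members (± SE) and 88 other protein-coding genes averaging 100 or more estimated counts. TAP2, PSMB8 and PSMB9 lie above 1 beside TAP1 at 0.19, and the other genes scatter about a median of 0.19.

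The other genes of the pathway were examined in lists, and 10 of the 47 tested rose while 24 fell (median log2 change -0.21), beside 22.6% higher and 23.4% lower over all genes tested. With the stricter filter or with values divided by 4, 8 rose. In a list of further proteasome genes all 6 tested fell, namely PSMB5, PSMB6, PSMB7, PSME3, PSME4 and POMP. Only PSMB5, PSMB6 and PSMB7 are constitutive partners of the inducible catalytic subunits. Besides the catalytic subunits, PSME3, which encodes the activator PA28 gamma, averaged 153 ± 5.81 CPM in overexpression and 243 ± 5.52 CPM in vector (SD, n = 3; log2 -0.67 ± 0.05, edgeR adjusted p = 2.06e-05). Of 8 loading chaperones and cytosolic peptidases, 6 fell and none rose. PDIA3, the disulfide isomerase of the loading complex, averaged 97.4 ± 1.00 CPM in overexpression and 164 ± 4.45 CPM in vector (log2 -0.75 ± 0.04, edgeR adjusted p = 9.68e-06). CANX, which encodes calnexin, an early chaperone of heavy chains, averaged 305 ± 6.72 CPM in overexpression and 369.5 ± 9.03 CPM in vector (log2 -0.27 ± 0.04, edgeR adjusted p = 0.00104). None of the genes tested in these 2 lists rose.

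Class I-like genes and class II processing genes moved in both directions. Of 7 tested class I-like genes 4 rose, among them AZGP1, which had 14, 28 and 14 estimated counts in overexpression and none in vector and passed the filter only through the group where it was high. FCGRT, the gene of the neonatal Fc receptor, was the 1 that fell (log2 -0.70 ± 0.17, edgeR adjusted p = 0.0106). MICA, which encodes a stress-induced ligand of the receptor NKG2D and lies in the same complex, averaged 23.2 ± 1.11 CPM in overexpression and 5.33 ± 0.332 CPM in vector (log2 2.12 ± 0.10, edgeR adjusted p = 4.89e-06). MR1, which presents vitamin metabolites to MAIT cells, averaged 42.6 ± 1.82 CPM in overexpression and 26.4 ± 2.19 CPM in vector (edgeR adjusted p = 0.000225). Of 11 tested class II and endosomal genes 4 rose and 3 fell. Of the 4, HLA-DQA1 (11, 23 and 15 estimated counts in overexpression, none in vector) and HLA-DQB1 passed the filter only through their overexpression libraries. MARCHF1, a ubiquitin ligase gene that lowers surface class II, averaged 30.1 ± 2.19 CPM in overexpression and 14.4 ± 2.84 CPM in vector (edgeR adjusted p = 0.00057), and HLA-DQB1, a class II beta chain gene, had 190, 172 and 183 estimated counts in overexpression, against 8, 53 and 22 in vector (edgeR adjusted p = 0.00165). CD83, whose product opposes MARCHF1, averaged 29.6 ± 1.53 CPM in overexpression and 59.9 ± 3.50 CPM in vector, and CTSD, which encodes the protease cathepsin D, 107 ± 7.09 CPM in overexpression and 188 ± 7.06 CPM in vector (edgeR adjusted p = 1.72e-05 and 2.8e-05).

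Of 15 tested genes of interferon-gamma signalling and of the promoter complex, 2 rose and 8 fell. IFNGR2, one chain of the interferon-gamma receptor, averaged 24.1 ± 0.205 CPM in overexpression and 15.3 ± 3.12 CPM in vector (edgeR adjusted p = 0.00577), and IFNGR1, the ligand-binding chain, 18.2 ± 0.505 CPM in overexpression and 35.2 ± 3.46 CPM in vector (edgeR adjusted p = 8.24e-05). IRF2, a factor that binds interferon response elements, rose as well (log2 0.53 ± 0.10, edgeR adjusted p = 0.0026), and IRF8, a factor of the same family, was lower (log2 -2.70 ± 0.27, edgeR adjusted p = 0.000119). IFNG itself had no counts in overexpression and 8, 0 and 0 estimated counts in vector, within the limit that a count of 0 allows. IRF1, a factor induced by interferon-gamma that binds the response element, averaged 71.3 ± 1.96 CPM in overexpression and 87.6 ± 7.28 CPM in vector and was among the 8 lower genes (log2 -0.30 ± 0.07, edgeR adjusted p = 0.00683).

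The T-cell identity of the cells was checked on 10 markers, all with counts in every library and a summed level of 2033 to 2073 CPM in overexpression and 2210 to 2384 CPM in vector. Of these markers 7 were called lower and 1, TRBC1, a constant gene of the T-cell receptor, higher. Over all genes tested 23.4% were called lower and 22.6% higher. The adhesion receptor gene CD2 had 286, 296 and 293 estimated counts in overexpression, against 1533, 1904 and 1804 in vector (log2 -2.57 ± 0.11, edgeR adjusted p = 3.02e-06), and CD7, an early T-cell marker, was lower too (log2 -2.09 ± 0.09, edgeR adjusted p = 3.09e-06). Their part in the members' values was not tested. Markers of cells that make class II in large amounts were examined too. The 8 B-cell markers summed to 34.0 to 42.1 CPM in overexpression and 55.9 to 79.9 CPM in vector, with MS4A1, PAX5 and CD22 under the floor of 12 in every library. The 10 myeloid and dendritic markers summed to 44.2 to 49.3 CPM in overexpression and 79.8 to 85.1 CPM in vector, with ITGAX at 0 throughout. Both sums were lower in overexpression, whereas the called class II members were higher, and their part in those values was not tested. Natural killer markers (7, at 4.21 to 4.71 CPM in overexpression and 3.05 to 6.33 CPM in vector) and epithelial and fibroblast markers (8, at 3.96 to 4.49 CPM in overexpression and 4.47 to 5.59 CPM in vector) were low in all libraries. Of the natural killer markers NCR1 was at 0 in every library, as were EPCAM and COL1A2 of the epithelial and fibroblast list. The natural killer marker NCAM1 was called higher (log2 2.38 ± 0.66, edgeR adjusted p = 0.0192), but passed the filter only through its overexpression libraries. Among epithelial and fibroblast markers KRT8 was called higher (log2 1.74 ± 0.42, edgeR adjusted p = 0.0104) and COL1A1 lower (log2 -0.86 ± 0.19, edgeR adjusted p = 0.00601).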

How the data were processed

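RNA of 6 Jurkat libraries (3 PDCD1-28 overexpression, 3 vector) was analysed from the table the authors deposited, which holds whole-number expected counts (estimated counts) for each gene symbol; column totals differ. The submitters' processing notes name build hg38 and the tools StringTie, DESeq2, STAR 2.7.10a and fastp 0.23.2, without their roles; the annotation release and the strand setting are not given in the sources used here. In every column the value 4 occurred more often than 3, as if 1 read pair added about 4, but 1 was the most frequent of the low values compared and in vector replicate 2 the value 7 was more frequent than 8. The unit is thus not settled: no interval treats 1 count as 1 read, and the floor of 12 would be 3 if it were. Total estimated counts per library, 59911578 to 84220970, set the precision.

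From these values, edgeR 4.0.16 (R 4.3.3) was run with its default expression filter, TMM factors, group as the only term and Benjamini-Hochberg adjustment over all 21055 genes tested (limma 3.58.1 as its base); values were already whole, so rounding changed none. SEs and 95% intervals came from the same F statistic. The script was tested on simulated data. The members and lists were chosen with earlier results of these data known. Every member is accounted for, with values of each library for those called averaging 100 or more estimated counts and for each regulator. From each list of other pathway genes up to 2 risen and 2 fallen genes of smallest adjusted p were named. PSMB5, PSMB6, PSME4, POMP, IRF1, IFNG, AZGP1, HLA-DQA1, CD2, CD7, TRBC1, NCAM1, KRT8 and COL1A1 were added after their values were seen. Positions and principal transcripts came from GENCODE 29 and start windows from RefSeq (GRCh38.p14). Alternatives were DESeq2 1.42.0, other size factors, other filters, values divided by 4, a replicate block and each library left out; the length used for subunit pairs was varied after seeing the data. Figures used matplotlib 3.10.9.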

Additional observations from a re-analysis of the deposited data

How the results depend on the processing

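The count of members called ran from 13 to 18 over 13 alternatives, against 16. Only members tested in both the main fit and the alternative entered the next tally. There, 310 values kept direction and side of the threshold, 14 lost a call, 5 gained one and 4 turned direction. HLA-DRB1 was not tested with the stricter filter, so that loss is not among the 14. With DESeq2 4 class II members were called, against 3 in the main fit. The further one was a member that the main fit did not test. The 4 that turned were of genes not called. With 1 library left out the log2 change of HLA-E ran from -0.0712 (without vector replicate 2) to 0.1619, that of CIITA from -0.4423 to 0.0319 (without vector replicate 2), and that of NLRC5 from -0.4628 (without vector replicate 2) to 0.1188 (without vector replicate 1), being 0.0208 without vector replicate 3. The cause was not tested. Regulators called numbered 2 to 4 with 1 library left out, the 4 being without vector replicate 2, where RFXAP rose and NLRC5 fell. RFXAP was also called with upper-quartile factors (edgeR adjusted p = 0.0359) and the stricter filter (edgeR adjusted p = 0.0430).

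Whether the replicate numbers pair the libraries is not settled. Deviations from the group means correlated at 0.0074, 0.0106 and 0.0125 for same-numbered libraries, each of which correlated best with its own number. Differently numbered libraries correlated between -0.0108 and -0.0018. All values are near 0, and deviations sum to 0 within each group, so these few libraries cannot exclude pairing. With the replicate block 8690 genes were called in place of 9705, and 14 members, HLA-F (edgeR adjusted p = 0.0746) and HLA-DMA (edgeR adjusted p = 0.0515) being lost. Upper-quartile factors put the median log2 change of all genes at 0.06, against 0.02 with TMM. Most class II genes held few counts in all libraries, which limits the precision of their changes.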
